A study of Mus musculus with 2 samples.

Results

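Cck, Tac1, Nptx1 and Stmn2 are 4 genes best known from neurons that were found in single cells of salivary gland organoid stroma. They were chosen by name, from earlier results on these tables in which some of them led clusters of the library grown with FGF2, and their entries were taken from all clusters of 3 deposited tables. The tables list 5238 genes in all. Salivary glands of CD-1 mice, an outbred stock, gave the organoids, and the age is labelled as embryonic day 16 "+7", with no unit for the 7. For the control, 5023 cells were captured for 1 library, and for organoids with FGF2 (fibroblast growth factor 2) 10107 cells for 1 library. The sources used here do not give the dose and duration of FGF2, the pooling of embryos or the way the stroma was obtained, and both libraries share the strain, tissue and age. The series asks which stromal subpopulations these organoids hold. With 1 library per condition, differences between the conditions have no replicate check and were not tested.

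Neuropeptides are made as long precursors that are cut and trimmed in dense-core vesicles and often amidated at their end before release. Cck encodes the precursor of cholecystokinin, a gut hormone and brain peptide that acts through the receptors Cckar and Cckbr. Tac1 encodes the precursor of substance P and neurokinin A, tachykinins that act through Tacr1 and Tacr2, and substance P is carried by nerve fibres of salivary glands, where it stimulates secretion. Nptx1 encodes neuronal pentraxin 1, a secreted protein that clusters AMPA-type glutamate receptors at synapses. Stmn2 encodes a stathmin that destabilises microtubules in growing axons.

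The values are of a few kinds. A listed share is the percentage of cells of a cluster with a value above 0 in the authors' deposited table, and a listed log ratio is the natural log of the cluster's average over that of all other cells of the same table, also as deposited. From these, a library share (the percentage of all cells of a library with a count) and a relative level were computed. The relative level is the cluster average plus 1, divided by the library average plus 1, so that a value of 1 equals the library as a whole. The offset of 1 makes differences of low genes look smaller than they are. An unlisted gene is not an absent gene, because only differences past the authors' limits are listed. The depth per cell was unknown.

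All 4 genes were listed in at least 1 cluster of the FGF2 table, as were 15.2% of the 20056 genes tested there. The number of genes tested is the factor between the authors' adjusted and unadjusted p-values. It may include genes that could never pass the listing limits, so percentages of all genes tested may be low as a background. The control table listed 2 of the 4, Tac1 and Stmn2, beside 23.2% of 19070 genes, and in the integrated table all 4, beside 43.1% of 2802 genes. The tables served to choose the genes, so these counts only describe them. Cck and Nptx1 have no value for the control library.

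The genes lie on 4 chromosomes of the mouse build GRCm38 (mm10), per RefSeq: Stmn2 on chromosome 3 (8509527 to 8561604), Tac1 on chromosome 6 (7555061 to 7562978), Cck on chromosome 9 (121489824 to 121495694) and Nptx1 on chromosome 11 (119538719 to 119547820). Promoter sequences from RefSeq (GRCm38.p6) were matched for 2 of the 4 genes, Cck and Tac1, the 2 peptide genes that were highest in the same clusters. The 250 bases before each start site are shown, on the strand of the gene, from chr9:121495695-121495944 (minus strand) and chr6:7554811-7555060 (plus strand). Capitals mark every match to TGCGTCA, a variant of the cyclic AMP response element, and to CACGTG, an E-box.
Cck: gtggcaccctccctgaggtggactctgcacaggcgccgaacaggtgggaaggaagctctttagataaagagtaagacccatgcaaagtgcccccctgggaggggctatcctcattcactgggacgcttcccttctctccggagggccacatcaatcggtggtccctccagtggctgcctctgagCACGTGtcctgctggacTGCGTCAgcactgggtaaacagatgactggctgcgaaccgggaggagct
Tac1: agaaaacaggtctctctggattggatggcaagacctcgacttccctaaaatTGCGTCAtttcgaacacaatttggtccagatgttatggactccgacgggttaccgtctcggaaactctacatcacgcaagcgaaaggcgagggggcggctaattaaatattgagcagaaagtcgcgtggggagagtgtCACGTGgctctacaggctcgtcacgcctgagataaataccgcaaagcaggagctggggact
Both windows held 1 match to each motif. In Cck they lay 49 to 43 bases (TGCGTCA) and 66 to 61 bases (CACGTG) before the start, and in Tac1 199 to 193 and 61 to 56 bases before it. On either strand, TGCGTCA was found in 1.75% and CACGTG in 6.02% of 32851 RefSeq promoter windows of the same length, and both together in 0.174%. The AP-1 motif TGANTCA was in neither window and in 6.75% of all windows. The first 2 motifs were picked after the sequences had been read, the motifs do not overlap in these windows, and a match is a description of letters only.

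**Figure D1:**
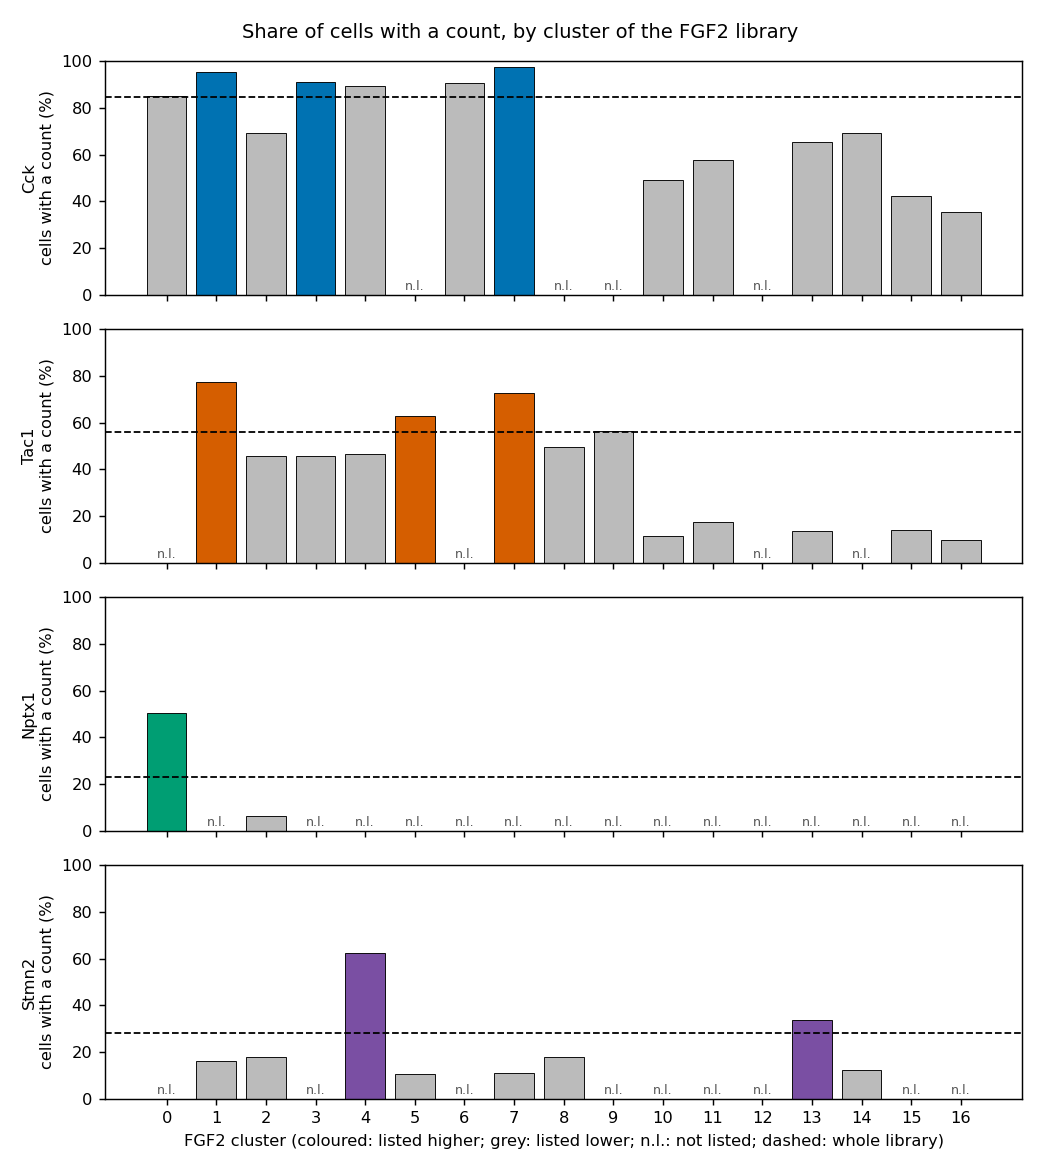
Percentage of cells with a count of Cck, Tac1, Nptx1 and Stmn2 (y axis, 0 to 100%) in the 17 clusters of the FGF2 library (x axis), as deposited by the authors. Bars are coloured where the cluster is listed as higher than the other cells and grey where it is listed as lower, n.l. marks clusters with no entry, and the dashed line is the library share; Cck and Tac1 share high clusters 1 and 7, Nptx1 is highest in cluster 0 and Stmn2 in cluster 4.

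Cck was the most widely detected of the 4. Its library share with FGF2 was 84.7% (exact 95% binomial interval 84.0 to 85.4% if all captured cells were kept, counting error only). It was highest in FGF2 cluster 7, where the authors' deposited table lists it in 97.6% of the cells against 83.9% of the others (natural log ratio 1.29), and in cluster 1, in 95.4% against 82.9% (0.84). Cluster 1 held 14.1% of the FGF2 cells and cluster 7 held 6.05%. Cck had the largest log ratio of the 75 genes listed higher in cluster 1 and the fourth of 177 in cluster 7.

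Detection was close to even among most of the clusters called stromal here, 0 to 9 and 12, while the level was not. The relative level was 3.13 in cluster 7, 1.96 in cluster 1 and 1.28 in cluster 3, a cluster led by Ero1l and Il33. It was 0.65 in the contractile-like cluster 4, 0.59 in cluster 6, 0.56 in cluster 0 and 0.25 in cluster 2. In clusters 0, 4 and 6 the authors' deposited table lists Cck in a larger share of cells than outside them (85.2%, 89.2% and 90.5%, against 84.6%, 84.3% and 84.3%) with a negative log ratio (-0.66, -0.46 and -0.56). In those clusters Cck was thus detected at least as often, with a lower average. Cluster 2, led by Igfbp3, Lpl and Clu, had Cck as the first of its 106 lower genes, with a listed share of 69.2% and a log ratio of -1.48. The unlisted clusters 5, 8, 9 and 12 together had a mean share of 89.0% and a mean relative level of 0.82.

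Cck was also low in the clusters named by markers of cells other than stroma. In the authors' deposited table Cck was found in 35.5% of the Schwann or glial-like cluster 16, 42.2% of the mast-like cluster 15, 57.7% of the epithelial-like cluster 11 and 69.2% of the leukocyte-like cluster 14. Their relative levels were 0.16, 0.31, 0.34 and 0.52, so that cluster 2, at 0.25, lay below 3 of them. Clusters 10 and 13, with shares of 48.9% and 65.5%, had relative levels of 0.62 and 0.53. The fibroblast proteoglycan gene Dcn was listed in shares of the same order in the same clusters, 35.5%, 48.4%, 46.0% and 66.2%, so a stromal transcript was found in cells named by other markers too. The shares in clusters 15 and 16 are therefore the background against which the share of the stromal clusters stands. The part of free RNA in them was not tested. From cluster 7 to cluster 16 the relative level differed 20.1-fold. Since no average can be below 0, the FGF2 library average of Cck was at least 5.41 and that of cluster 7 at least 19.1 in the authors' normalized units of unknown scale.

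Tac1 had a narrower distribution with the same leading clusters. It was found in 55.9% of the FGF2 cells (exact 95% binomial interval 54.9 to 56.8% on the same terms). In the authors' deposited table it was highest in cluster 1, at 77.3% against 52.3% of the other cells (log ratio 0.73), followed by cluster 7 at 72.8% against 54.8% (0.47) and cluster 5 at 62.6% against 55.3% (0.37). Its relative levels there were 1.80, 1.55 and 1.40. In cluster 1 Tac1 was the third by log ratio, after Cck and Odc1, the gene of ornithine decarboxylase, and before Hgf (hepatocyte growth factor) and Il11 (interleukin 11). Cluster 5, led by Igfbp5 and Cd24a, was high for Tac1 and unlisted for Cck, and cluster 3 was high for Cck (1.28) and low for Tac1 (0.71).

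In the other stromal clusters Tac1 was common. The authors' deposited table lists it in 45.5% to 49.4% of the cells of clusters 2, 3, 4 and 8, with log ratios from -0.66 to -0.37. In the proliferating-like cluster 9 the listed share was 56.2% against 55.8%, with a log ratio of -0.39. The unlisted clusters 0, 6, 12 and 14, the last of them leukocyte-like, had a mean share of 65.1% and a mean relative level of 0.99. The 3 non-stromal clusters that list Tac1 had far lower shares of 9.7% (Schwann or glial-like), 14.1% (mast-like) and 17.5% (epithelial-like). Their relative levels were 0.42, 0.36 and 0.44. The leukocyte-like cluster 14 has no value of its own. Clusters 10 and 13, whose listed genes had low median shares (14.4% and 12.0%), stood at 11.6% and 13.4%. In cluster 10 the relative level of 0.64 was close to that of clusters with a share of 49.4%, so the few cells with a count had high normalized values. The library average was at least 1.79 and that of cluster 1 at least 4.03 in the same units.

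Nptx1 had its highest value in a different cluster. The authors' deposited table gives it a share of 50.5% in FGF2 cluster 0 against 17.8% outside (log ratio 0.66), the largest log ratio of the 58 genes listed higher there. Cluster 0 was also led by Cdkn2a and Cdkn2b, cell cycle inhibitors, Ctsl, a lysosomal protease, and Tcf12, a transcription factor. The other entry was cluster 2, at 6.2% against 25.2% (-0.36). The remaining 15 clusters were unlisted and had a mean share of 19.5% and a mean relative level of 0.89, against 1.68 in cluster 0 and 0.72 in cluster 2. The library share was 23.2% (22.3 to 24.0% on the same terms as above). No non-stromal cluster lists Nptx1, so no share in non-stromal cells can be given for it.

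Stmn2 was high where Cck and Tac1 were not. Its library share with FGF2 was 28.0% (27.1 to 28.9% on the same terms). The authors' deposited table lists it in 62.6% of the contractile-like cluster 4 against 25.1% of the other cells (log ratio 0.99) and in 33.8% of cluster 13 against 27.9% (0.74). Cluster 13 was contractile-like as well, with 4 of 6 contractile markers listed higher, led by Acta2 and Tagln. The relative level was 2.37 in cluster 4 and 2.07 in cluster 13. In cluster 4 Stmn2 was the tenth of 197 higher genes, behind Acta2 (smooth muscle actin), Tagln (transgelin) and Thbs1 (thrombospondin 1) among others. Clusters 5, 7 and 1 had listed shares of 10.8%, 11.1% and 16.1%, and clusters 2 and 8 of 17.9% and 18.1%. The leukocyte-like cluster 14, with 0.651% of the FGF2 cells, stood at 12.3%. The shares in clusters 5 and 7, which were high for Tac1, were no higher than that. The non-stromal clusters 11, 15 and 16 did not list Stmn2, so no share of their own can be given. The unlisted clusters 0, 3, 6, 9, 10, 11, 12, 15 and 16 had a mean share of 34.4%, above the library as a whole.

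**Figure D2:**
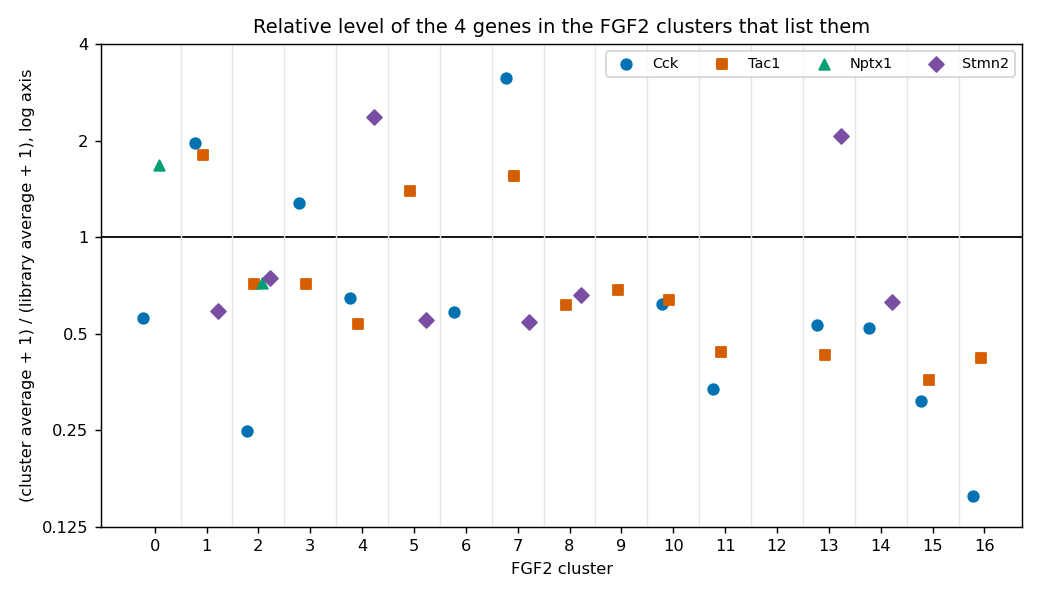
Relative level (cluster average plus 1 over library average plus 1, log axis) of the 4 genes in each FGF2 cluster that lists them (x axis), 1 point per gene and cluster with no error because there was 1 library. Cck reaches 3.13 in cluster 7 and 0.16 in cluster 16, and Stmn2 lies above 1 only in clusters 4 and 13.

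By cluster, 2 of the 4 genes (Cck and Tac1) were listed higher in FGF2 cluster 1, where 0.374% of all genes tested were, and 1 (Stmn2) was listed lower, as were 0.344%. In cluster 7 the same 2 were higher (0.883% of all genes) and Stmn2 lower. In cluster 0 it was Nptx1 (0.289%), and in cluster 4 Stmn2 (0.982%). All 4 were listed lower in cluster 2, as were 0.529% of the genes. These contrasts were used in choosing the genes and support nothing further. There was no spread between libraries by which neighbouring clusters in these orders could be told apart.

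Likeness was described by Pearson's r of the listed log ratios over FGF2 clusters that list both genes, with no test, since the clusters share 1 library and each is compared with the others. Cck and Tac1 had r = 0.83 over 10 clusters, with the same sign in 9. Clusters 11, 13, 15 and 16, which listed both genes lower, were among the 10, so r does not describe stromal clusters alone. By this measure Tac1 was the 70th of 299 genes for Cck, and Cck the 84th of 263 for Tac1. Stmn2 had r = -0.78 with Tac1 over 7 clusters and -0.41 with Cck over 6, with the same sign in 2 of each. The 5 genes most like Cck were Timp1 (0.99, 8 clusters), Slc16a11 (0.99, 6), Pla2g4a (0.98, 6), Frzb (0.97, 8) and Il11 (0.96, 11). Those most like Tac1 were Col6a6 (0.99, 6), Gpm6b (0.99, 8), Mark1 (0.99, 6), Wipi1 (0.98, 6) and Ednrb (0.98, 7). Those most like Stmn2 were Cavin2 (0.997, 8), Acta2 (0.98, 6), Fabp5 (0.97, 6), Ddah1 (0.97, 8) and Ccnd1 (0.96, 7). Nptx1 was listed in too few clusters for this measure.

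In the control library the pattern was sparse. The Tac1 share of the control library was 11.4% (exact 95% binomial interval 10.5 to 12.3% on the same terms). The authors' deposited table lists it in 1 control cluster, cluster 1, at 37.3% against 7.0% of the other cells (log ratio 0.36). Control cluster 1 held 14.5% of the cells and was led by Crabp1, Mmp3 and Cpxm1, and Tac1 ranked 127th of its 239 higher genes. For Stmn2 it was 18.1% (17.0 to 19.2%). It was listed in control cluster 0 alone, at 25.8% against 16.5% (0.38), as the 25th of 55 higher genes. Control cluster 0 held 16.9% of the cells and was led by Fbn2, Vegfd and Dlk1. The contractile-like control clusters 3, 4 and 5 did not list Stmn2, while the contractile-like FGF2 cluster 4 had its highest listed share. Each cluster is compared only with cells of its own library, so this is no contrast between the libraries.

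Between the libraries, a size rule of 1.5-fold on library shares was used as a description, after adding 0.1 percentage points to each share. Tac1 had 4.86-fold the control share with FGF2 (log2 ratio 2.28), the 20th largest of 2318 genes compared, and Stmn2 1.55-fold (0.63), the 164th. Both of the 2 compared genes thus passed the rule upward, as did 7.46% of all genes, while 15.1% passed it downward and the median of all log2 ratios was -0.08. Control clusters 4 and 9 and FGF2 clusters 10 and 13, whose listed genes had low shares, held different parts of the 2 libraries. Without them, and with each unknown share set so as to make the difference smallest, the fold was 4.39 for Tac1 and 1.21 for Stmn2, so that Stmn2 no longer passed. A library share cannot tell more cells with the transcript from more transcript, or deeper reading, per cell, and the depths were unknown.

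Genes of the same pathways were counted from 7 lists with 163 genes other than the 4. Of these, 32 were listed in the control table and 24 in the FGF2 table, beside 23.2% and 15.2% of all genes tested. Those 2 percentages also stand beside the counts of each list below. Of the 163 genes, 20 could be compared between the libraries. With FGF2, 2 of the 20 had at least 1.5-fold the control share, 6 were lower and 12 lay within the rule, with a median log2 ratio of -0.36 beside -0.08 for all genes.

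Among the other 50 neuropeptide precursors on the list, 1 was listed in the control table and 2 in the FGF2 table. Adm, the precursor of the vasodilator adrenomedullin, had library shares of 45.2% (control) and 40.0% (FGF2). It was listed lower in FGF2 clusters 0 (26.5%) and 7 (21.4%) in the authors' deposited table. Nppc, the precursor of C-type natriuretic peptide, was listed in FGF2 cluster 3 alone, at 47.9% against 13.3% in the authors' deposited table (1.07), and was named after its value had been seen. The receptors Cckar, Cckbr, Tacr1, Tacr2 and Tacr3 and the pentraxin receptor Nptxr were listed in none of the 2 library tables.

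The machinery of peptide processing and dense-core vesicles was listed in part. Of its 22 genes 8 were listed in the control table and 5 in the FGF2 table, and of these 5 compared genes 1 was higher with FGF2 and 0 were lower (median log2 ratio 0.18). The higher gene was Ptprn, a transmembrane protein of dense-core vesicles, with a library share of 23.2% in the control and 69.4% with FGF2 (2.99-fold). In the authors' deposited table Ptprn was highest in cluster 7 (95.1%, log ratio 0.64) and cluster 1 (86.3%, 0.35), the clusters that led for Cck, and was found in 12.5% and 9.7% of the mast-like and Schwann or glial-like cells. Its log ratios had r = 0.88 with Cck over 9 clusters (50th of 299 genes) and 0.96 with Tac1 over 8 (18th of 263). The common clusters included 11, 13, 15 and 16, which listed Ptprn, Cck and Tac1 lower, so these r do not describe stromal clusters alone. Pam, the enzyme that amidates peptide ends, and Cpe, which trims them, lay within the rule, at 57.3% and 64.9% (Pam) and 78.6% and 83.5% (Cpe). The prohormone convertase genes Pcsk1 and Pcsk2 and the granin genes Chga and Chgb were unlisted in both library tables. Cadps, which primes dense-core vesicles for release, was listed in control cluster 1 alone, at 41.0% against 2.9% in the authors' deposited table, the same cluster as Tac1 (Pam, Cpe and Cadps were named after their values had been seen).

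Of 13 pentraxins and AMPA receptor partners other than Nptx1, 3 were listed in the control table and 2 in the FGF2 table, shares near the 23.2% and 15.2% of all genes. Olfm1, a secreted glycoprotein of the AMPA receptor complex, had library shares of 50.5% and 79.9% (1.58-fold). The authors' deposited table lists it higher in FGF2 clusters 1 (93.5%), 7 (94.9%) and 5 (88.9%), the same 3 clusters as Tac1. The log ratios of Olfm1 had r = 0.97 with Tac1 over 10 clusters (13th of 263 genes) and -0.91 with Stmn2 over 6 (68th of 69). Clusters 11, 13, 15 and 16 again listed both Olfm1 and Tac1 lower. Of 40 genes of synaptic vesicles and release, 1 was listed in the control table and 3 in the FGF2 table. Snap25, a SNARE protein of vesicle fusion, was listed in FGF2 cluster 7 alone, at 37.8% against 11.9% in the authors' deposited table (0.34). Syt11, a vesicle protein, was at 24.4% in the control and 9.95% with FGF2, and lower by the rule; its entries were the Schwann or glial-like clusters of both libraries. Sypl, a relative of synaptophysin, was listed in FGF2 cluster 13 alone (4.9% against 55.1%).

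Of 30 axon growth and cytoskeleton genes, 18 were listed in the control table and 11 in the FGF2 table, beside 23.2% and 15.2% of all genes tested. Of the 10 compared, 0 were higher with FGF2, 5 lower and 5 within the rule (median log2 ratio -0.69). Marker lists of other cells went both ways. Of 7 compared Schwann or glial markers 5 were lower and 2, Ednrb and S100b, were higher (median log2 ratio -1.06). Lower too were 4 of 4 contractile markers (-1.69) and 3 of 6 proliferating markers (-0.82). Of 6 compared epithelial markers 3 were higher and 1 was lower (0.49), and the 1 compared mast marker was higher. The Schwann or glial-like clusters held 1.15% of the control and 0.307% of the FGF2 cells. Of the 5 lower axon genes, the adhesion genes L1cam and Nrcam were listed in those clusters alone, in 75.9% and 77.6% of control cluster 10 against 0.5% and 4.6% of the other control cells in the authors' deposited table. The part of these cells in the list's count was not tested. The tubulin genes Tubb2a (52.0% and 30.0%) and Tubb2b (37.1% and 19.7%) and the microtubule protein gene Map1b (56.6% and 25.1%) were the other 3. Within the FGF2 library, 7 of the 163 list genes were listed higher in cluster 4 together with Stmn2, as were 0.982% of all genes tested. They were Adm, Basp1, Cpe, Dpysl3, Marcks, Tubb2a and Tubb2b, and 2 list genes were lower, Olfm1 and Ptprn. In the authors' deposited table Tubb2b was found in 65.1% of cluster 4 against 15.9% of the other cells. In cluster 0, 0.289% of all genes tested were listed higher. Nefl, the light neurofilament subunit, was the 1 list gene higher there beside Nptx1, at 42.7% against 15.2% (0.40), while Adm and Marcks were lower. In cluster 1, 2 list genes were higher (0.374% of all genes tested), Olfm1 and Ptprn, and 2 lower (0.344%), Dpysl3 (in 41.9% of cells) and Marcks. In cluster 7, 3 were higher (0.883% of all genes tested), Olfm1, Ptprn and Snap25, and 5 lower, Dpysl3 and Marcks again among them. Stmn1, the stathmin of dividing cells, was highest in the proliferating-like FGF2 cluster 9 (94.4% in the authors' deposited table) and lay within the rule between the libraries (49.4% and 34.6%). L1cam, Nrcam, Tubb2a, Tubb2b, Map1b, Basp1, Cpe and Stmn1 were named after their values had been seen.

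**Figure D3:**
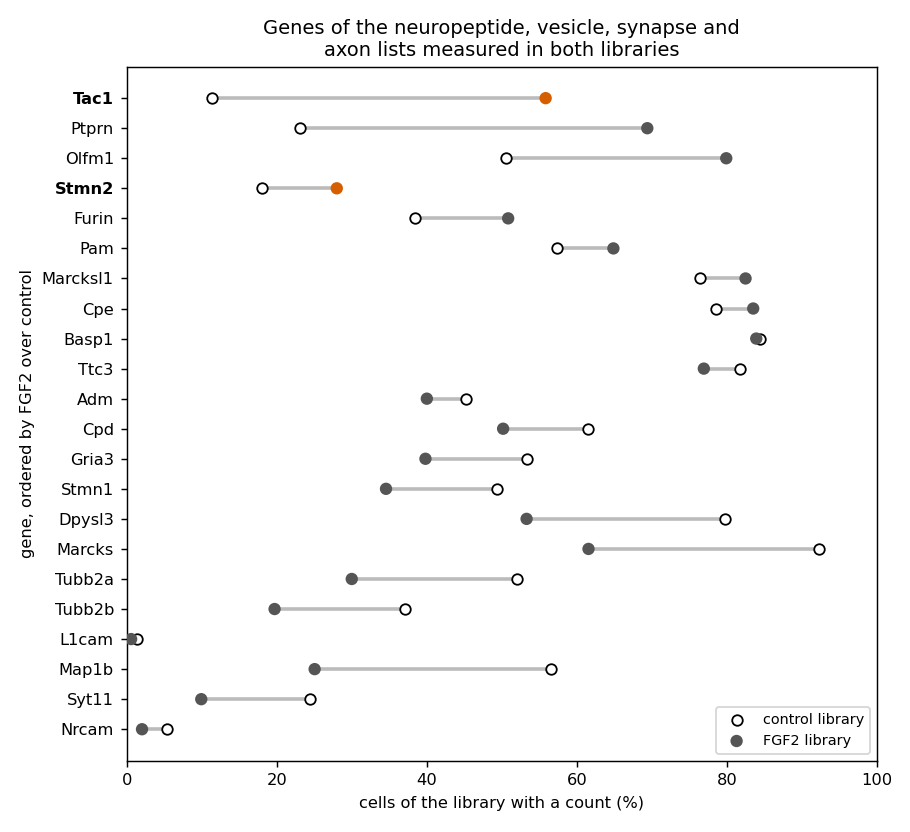
Library share (percentage of cells with a count, x axis) in the control (open) and FGF2 (filled) library for Tac1, Stmn2 and the 20 other list genes compared, ordered by their ratio (y axis). Tac1 lies at 11.4% and 55.9% and Ptprn at 23.2% and 69.4%, and 5 of the 10 axon genes are lower with FGF2 by the size rule.

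Of 30 neuron markers, 5 were listed in the control table (Tubb3, Map2, Hand2, Uchl1 and Gap43) and 2 in the FGF2 table (Nefl and Snap25). Of all genes tested, 23.2% and 15.2% were listed in these tables. Elavl3, Elavl4, Chat and Th were unlisted in both, and of 10 neuroendocrine markers 0 were listed in either. In the control library 4 neuron markers (Tubb3, Hand2, Uchl1 and Gap43) were listed higher in cluster 10, beside 11 of 13 Schwann or glial markers, from which it was named. Every other cluster of either library listed at most 1 neuron marker higher. Of 12 stromal fibroblast markers, FGF2 cluster 1 listed 2 higher, Dcn and Twist2, and cluster 7 listed 5 higher, these 2 among them. Col1a1 (log ratio -0.41), Col1a2 (-0.35), Col3a1 (-0.43) and Vim (-0.53) were listed lower in cluster 1, as was Vim in cluster 7 (-0.99). In the authors' deposited table Dcn was found in 98.0% and 99.5% of the cells of clusters 1 and 7. Twist2, a mesenchymal transcription factor, was found in 90.7% and 96.6%, and Vim, though lower, in 98.0% and 96.2%. Pdgfra, the receptor of fibroblasts, was found in 84.2% of the FGF2 cells and was listed lower in clusters 11 and 13 to 16 and in no other. Cluster 4 had Dcn in 84.8% of its cells, with a log ratio of -1.57, and 4 of 6 contractile markers were listed higher there.

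The integrated table holds batch-integrated values of both libraries, so its differences are not differences of expression. Cck (log ratio 1.34) and Tac1 (0.90) were highest in integrated cluster 1, led by Igfbp5, Slpi and Il11, where Stmn2 had its lowest listed share (12.7% against 58.2% in the authors' deposited table). Stmn2 was highest in the contractile-like integrated cluster 2 (88.5% against 44.1%, 0.75). Nptx1 was highest in integrated cluster 0 (0.46), where Tac1 was listed higher too (0.35), although the shares were lower there than outside (38.1% against 51.1% for Nptx1 and 65.2% against 71.8% for Tac1). Counting these 2, shares and log ratios went in opposite directions in 11 of the 31 integrated entries of the 4 genes. That was a larger part than the 19.0% of all integrated entries. In the FGF2 table it was 4 of 36, beside 11.5% of all entries. In integrated cluster 2, Nptx1 had a larger share than outside (76.9% against 43.6%) and a negative log ratio (-0.30). The integrated shares are of batch-integrated values, so they were not read as detection and were not set beside those of the libraries. Opposite directions occurred in the FGF2 table too and do not by themselves decide this.

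**Figure D4:**
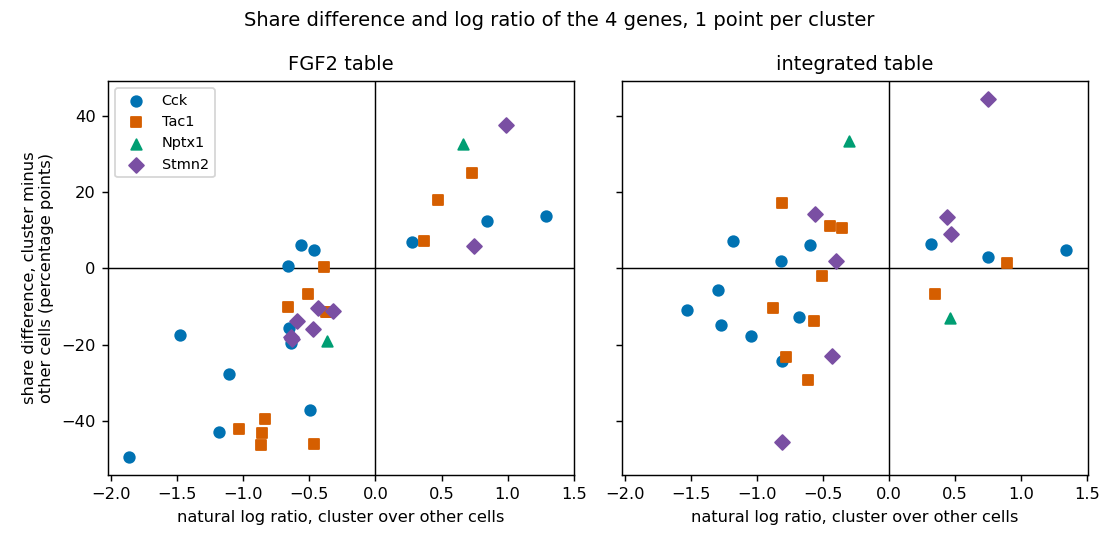
Share difference (cluster minus other cells, percentage points, y axis) against the natural log ratio (x axis) for each listed entry of the 4 genes, in the FGF2 table (left) and the integrated table (right), 1 point per cluster. Points in the upper left and lower right have opposite directions, 4 of 36 on the left and 11 of 31 on the right.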

How the data were processed

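Droplet single-cell libraries (10x Chromium, 3' ends) of 1 control and 1 FGF2 sample were used, with Cell Ranger 4.0 and the build mm10 named in the submitters' processing notes. Not given in the sources used here: filters on cells, doublet treatment, normalization, clustering and the authors' test. Per the file headers, the 3 deposited tables compare each cluster with the other cells: log ratios, read as natural log values, shares of positive cells as fractions (printed as percentages), and p-values over cells, which the authors give and which stay unprinted, since cells of 1 library do not replicate a condition. Entries had an absolute log ratio of at least 0.25 and a larger share of at least 25.1% (25.3% integrated). The log base was checked on genes with no positive cell in several clusters: the recovered library average varied by a median of 0.00169% over 8 control and 0.0030% over 5 FGF2 genes with the natural log, against 0.0488% and 0.0334% with base 2.

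The sum of the other cells' share and the cluster's part times the difference of shares is the same for all clusters of a gene. Least squares over genes listed in at least 2 clusters (2077 control, 1490 FGF2) gave cluster parts (sums 100.04% and 99.95%, residual root mean square 0.0238 and 0.0242 points), library shares, relative levels and, by difference, the mean over unlisted clusters. The scripts (Python 3.11.15, numpy 2.4.6, pandas 2.3.3, scipy 1.17.1) were tested on simulated data. Libraries were compared for genes listed in both tables with a share of at least 0.5% in 1 of them. Clusters were named from marker lists with at least 3 members listed higher, by the list with the largest share of its members higher where several had 3. FGF2 clusters 0 to 9 and 12 are called stromal as the remainder, without clusters 10 and 13 of low listed shares, and not by that rule. Of 12 stromal fibroblast markers, clusters 0 and 3 listed 1 higher, cluster 1 listed 2, and clusters 6 and 12 listed no such marker higher. In cluster 0 the other listed stromal markers were lower, among them Dcn (-0.66).

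The genes and lists were chosen with earlier results of these data known. Named genes were, by rule, the 4 genes, the 5 most like each over at least 6 common clusters, the 5 leading genes of their highest cluster, and up to 6 per list with the largest log ratio in FGF2 clusters 0 or 1 (in any cluster where none was listed there). Dcn, Twist2, Pdgfra and leading genes of other clusters were named after their values had been seen. Alternatives were other fits of the parts, pseudocounts, log bases and listing limits. A test between groups was not possible.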

Additional observations from a re-analysis of the deposited data

How the results depend on the processing

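Library shares stayed within their counting intervals under each other fit of the cluster parts that could be made. Both library ratios kept their side of the size rule under those fits that gave both shares, and kept their direction with a pseudocount of 1 percentage point (log2 ratio 2.20 for Tac1 and 0.61 for Stmn2). Without the 4 clusters of low listed shares, a setting chosen after seeing the data, Stmn2 fell under the size rule (log2 ratio 0.28) and Tac1 did not (2.13). Read as base 2, the highest relative levels were 1.23 (Tac1) and 1.24 (Stmn2) in the control and 2.25 (Cck), 1.52 (Tac1), 1.44 (Nptx1) and 1.84 (Stmn2) with FGF2. With a log ratio of at least 0.5, the clusters listing a gene higher numbered 0 for Tac1 and for Stmn2 in the control, 1 for Tac1 with FGF2, and 1 for Tac1, 0 for Nptx1 and 1 for Stmn2 in the integrated table. With a share at least 25 points above the other cells they numbered 0 for Stmn2 in the control, 0 for Cck, 1 for Tac1 and 1 for Stmn2 with FGF2, and 0, 0, 0 and 1 for Cck, Tac1, Nptx1 and Stmn2 in the integrated table. With a log ratio of at least 0.5, pathway genes higher and lower numbered 0 and 0 in FGF2 cluster 0, 1 and 0 in cluster 1, 1 and 1 in cluster 4, and 1 and 0 in cluster 7, because fewer entries remain. The control shares could not be had with entries of at least 0.5, and no cluster with a share of 0 was listed from which to remove the offset. No paired analysis was possible because each condition had 1 library.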
